A study of Mus musculus with 7 samples.

Results

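Among the small RNA counts of the mouse lateral ventricles and choroid plexus, 2585 table entries carry a provisional mouse gene name, Gm followed by digits, and 57 of these had 50 or more reads summed over the 7 libraries. These 57 genes are described here, out of 66568 named entries in all. The name and the summed reads chose them, so their totals, which ran from 57 to 8170 reads, are given as a description and without a test. The entries just inside the minimum were Gm22540 with 62 reads, Gm25698 with 58 and Gm22357 with 57, and those just outside were Gm24299 with 48, Gm22589 with 46 and Gm24453 with 46.

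The libraries came from adult mice of the strain C57BL/6J: 4 of the genotype TAp73 Knock-out and 3 of the genotype Wild-type. TAp73 denotes the transactivating isoforms of p73, a relative of p53. No treatment, and no Cre driver or other allele, is given in the labels for either group. Whether each library came from its own animal is also not given, so p-values measure the spread between libraries, which may be technical. Small RNA was sequenced from total RNA, and Trp73 itself, which encodes TAp73, was not measured.

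Most of the 57 genes encode small nucleolar RNAs (snoRNAs). Box C/D snoRNAs carry a C box near the 5' end and a D box near the 3' end and guide 2'-O-methylation of ribosomal and spliceosomal RNA, while box H/ACA snoRNAs end in an ACA box and guide pseudouridylation. In mammals most of them are cut out of the introns of other genes, their hosts. Many hosts encode ribosomal proteins or other proteins of ribosome production, and some, such as Snhg1 and Gas5, encode no protein. In brain, the imprinted Snhg14 locus is known for its long arrays of box C/D snoRNA copies.

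The sequences of the 11 genes inside Snhg1 and Gas5 are shown first because these hosts held the most members, with 33.6% and 10.4% of the reads of the 57 genes. All are on the plus strand of the build GRCm38, written 5' to 3' as DNA. Capitals mark a C box TGATGA within the first 20 bases and a D box CTGA within the last 15 bases. The Snhg1 genes lie on chromosome 19, from chr19:8723993-8724064 for Gm25855 to chr19:8725594-8725660 for Gm23246.
Gm25855: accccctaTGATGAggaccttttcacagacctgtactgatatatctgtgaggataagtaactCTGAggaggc
Gm25894: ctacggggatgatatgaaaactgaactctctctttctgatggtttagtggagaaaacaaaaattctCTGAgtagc
Gm24452: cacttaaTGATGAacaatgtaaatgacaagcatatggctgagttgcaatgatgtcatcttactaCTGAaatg
Gm22744: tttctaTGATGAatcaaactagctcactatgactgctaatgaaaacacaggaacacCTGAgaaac
Gm22680: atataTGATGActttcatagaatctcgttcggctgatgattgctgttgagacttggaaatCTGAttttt
Gm23246: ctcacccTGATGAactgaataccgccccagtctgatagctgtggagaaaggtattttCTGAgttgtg
Of the 6 genes in Snhg1, Gm25894 lacked an exact TGATGA in its first 20 bases and the other 5 carried both boxes. The Gas5 genes lie on chromosome 1, from chr1:161035394-161035473 for Gm26224 to chr1:161038308-161038383 for Gm25789.
Gm26224: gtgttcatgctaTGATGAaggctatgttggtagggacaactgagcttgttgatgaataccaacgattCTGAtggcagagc
Gm22489: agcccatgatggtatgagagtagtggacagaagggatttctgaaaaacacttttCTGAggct
Gm22357: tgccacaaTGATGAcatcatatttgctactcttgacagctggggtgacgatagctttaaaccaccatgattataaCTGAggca
Gm23212: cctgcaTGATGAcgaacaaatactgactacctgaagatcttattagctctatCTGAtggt
Gm25789: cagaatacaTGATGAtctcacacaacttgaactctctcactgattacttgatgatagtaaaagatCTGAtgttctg
In Gas5, Gm22489 lacked the exact C box, and the other 4 carried both.

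The GENCODE M21 annotation placed 56 of the 57 genes and typed 47 as snoRNA, 7 as small nuclear RNA (snRNA) and 1, Gm24601, as rRNA. Gm22574, inside the gene of the cytochrome oxidase subunit Cox7c, has the type TEC there and is a snoRNA in RefSeq. Gm22188 was matched to no position and is named only. Among all Gm entries, 4.14% of the 1136 typed as snoRNA reached 50 reads, against 0.549% of the 1274 typed as snRNA and 0.658% of the 152 typed as rRNA. The snoRNA genes among the 57 were 60 to 144 bases long, with a median of 76.

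The snoRNA entries that reached 50 reads were mostly of the box C/D kind, short and inside another gene. An exact C box and D box stood in 30 of 47 (63.8%), against 37 of 324 entries with 1 to 49 reads (11.4%) and 22 of 765 with no read (2.9%). An ACA in the last bases, followed by 2 to 5 further bases, without the C box was found in 8.5%, 46.0% and 54.6% of these 3 sets in the same order. Motifs were searched as exact letters on the transcript strand alone, and a match is a description of the letters and not a tested site. The 31 genes with both boxes, Gm22574 included, held 64.9% of the 34827 reads of the 57 genes. Length followed the same order: 85.1% of the entries with 50 or more reads were shorter than 100 bases, against 19.8% and 12.5%. These differences describe sets defined by their reads and were not tested.

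**Figure D1:**
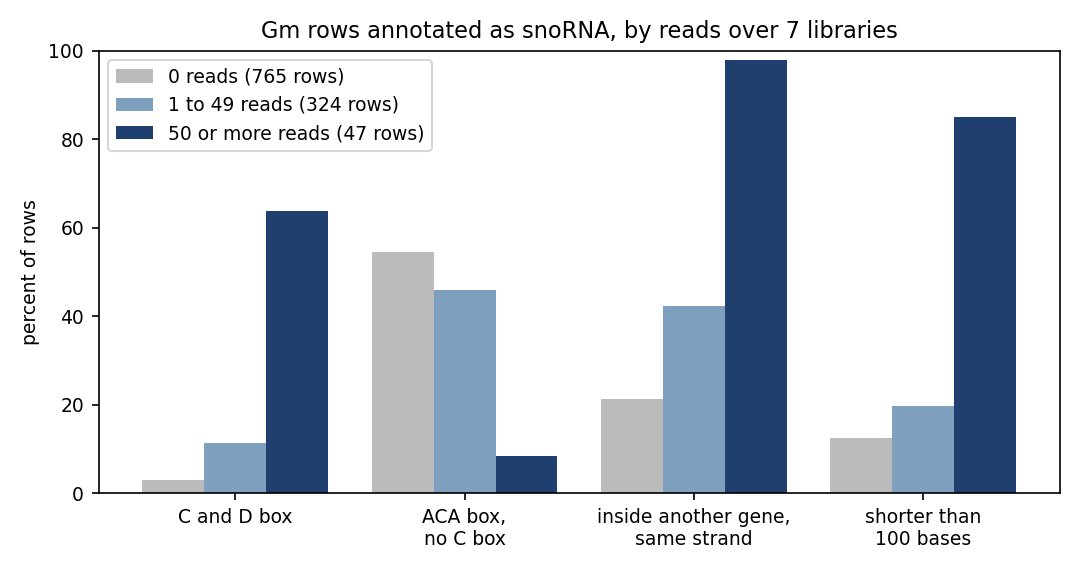
Percent of snoRNA-typed Gm entries (y axis) with each sequence or position feature (x axis), for entries with 50 or more reads, 1 to 49 reads and 0 reads over 7 libraries. Box C/D sequences reach 63.8%, 11.4% and 2.9% of these sets, and ACA endings without a C box 8.5%, 46.0% and 54.6%.

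Position inside a host differed between the sets in the same order. Of the 47 snoRNA genes with 50 or more reads, 46 (97.9%) lay inside another gene on the same strand, against 42.3% of those with 1 to 49 reads and 21.3% of those with none. With Gm22574, 47 of the 57 genes lay in 30 hosts, of which 25 encode proteins and 5 are annotated as processed transcripts. The 15 genes in the 5 processed-transcript hosts held 47.2% of the reads. The 6 genes in Snhg1 held 33.6% and the 5 in Gas5 10.4%. In 22 of the 47, every host transcript that spans the gene has an intron there, 24 overlap an exon of at least 1 host transcript, and 1, Gm25156 in Snhg14, is spanned by no single transcript. Ribosomal protein genes hosted 10 of the 57, in 6 hosts, among them Rpl17, Rpl4 and Rpl7a. Other hosts encode the mitochondrial chaperone Hspa9, the translation helicase Eif4a1, nucleolin (Ncl), the box C/D snoRNP protein Nop56 and the spliceosome subunit Sf3b3.

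Reads were concentrated in a few genes. Gm23246 alone held 23.5% of the 34827 reads, the leading 3 genes 38.1% and the leading 12 71.9%. At the other end, 13 genes had fewer than 100 reads, and the median gene had 212. The 57 genes held 93.4% of the reads of all Gm entries and 0.114% of all 30673891 assigned reads.

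Levels are given as reads per 1000000 assigned reads (CPM), not scaled further, in the order knockout 1 to 4 and then wild type 1 to 3. Library totals ran from 969106 reads (knockout 3) to 9343921 (knockout 1) and overlapped between genotypes (exact permutation test over 35 splits of log2 totals, two-sided p = 0.57, smallest possible 0.029). In knockout 3, 36 of the 57 genes had fewer than 10 reads, so low genes are least certain there. The number was 1 in each of knockout 1 and 2, 7 in knockout 4, and 19, 22 and 10 in wild type 1 to 3. A count of 0 allows up to 3 reads, which is 3.1 CPM in knockout 3 and 0.321 CPM in knockout 1, for counting error alone. No library was a copy of another. Each pair was compared over those of the 57 genes with enough reads in that pair. These were 28 genes for knockout 3 with wild type 2 and 57 for knockout 1 with knockout 2. Chi-square per degree of freedom was 2.64 to 6.32 for the 9 pairs of the same genotype. For the 12 pairs across genotypes it was 2.3 to 5.9.

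Gm23246 had 261, 242, 305 and 261 CPM in the knockouts and 285, 233 and 334 in the wild types. In the direction of transcription it is the last of the 6 described Snhg1 genes, with the named Snord22 (39 reads) beyond it. Gm23246 was the highest of the 57 genes in every library, and its lowest and highest libraries were both wild type. Per 100 bases of length its mean over libraries was 410 CPM, followed by Gm26202 in Rpl17 with 149, Gm26109 in Hspa9 with 114, Gm26224 in Gas5 with 75.7 and Gm25894 in Snhg1 with 67.6. The other 4 Snhg1 genes had 8.05 to 29.5 CPM per 100 bases.

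Within a host the genes kept unequal levels in every library. Gm23246 made up 66.9% to 77.1% of the Snhg1 reads counted here and Gm25894 10.9% to 15.1%, with the same leading gene in all 7 libraries. In Gas5, Gm26224 held 45.1% to 54.7%, Gm23212 22.3% to 33.1% and Gm25789 7.27% to 21.6%, the last from wild type 3 to knockout 3. Of the described pair in Rpl17, a protein of the large ribosomal subunit, Gm26202 held 71.8% to 85.6%. Of the described pair in Rpl4, Gm23344 held 89.3% to 95.4%. Other snoRNA entries of these hosts are left out of the shares, such as Snord58b in Rpl17 with 178 reads and Snord47 in Gas5 with 138. Genes of 1 host thus differed in reads, which count recovered fragments in a small RNA library and need not follow the amount of intact snoRNA.

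**Figure D2:**
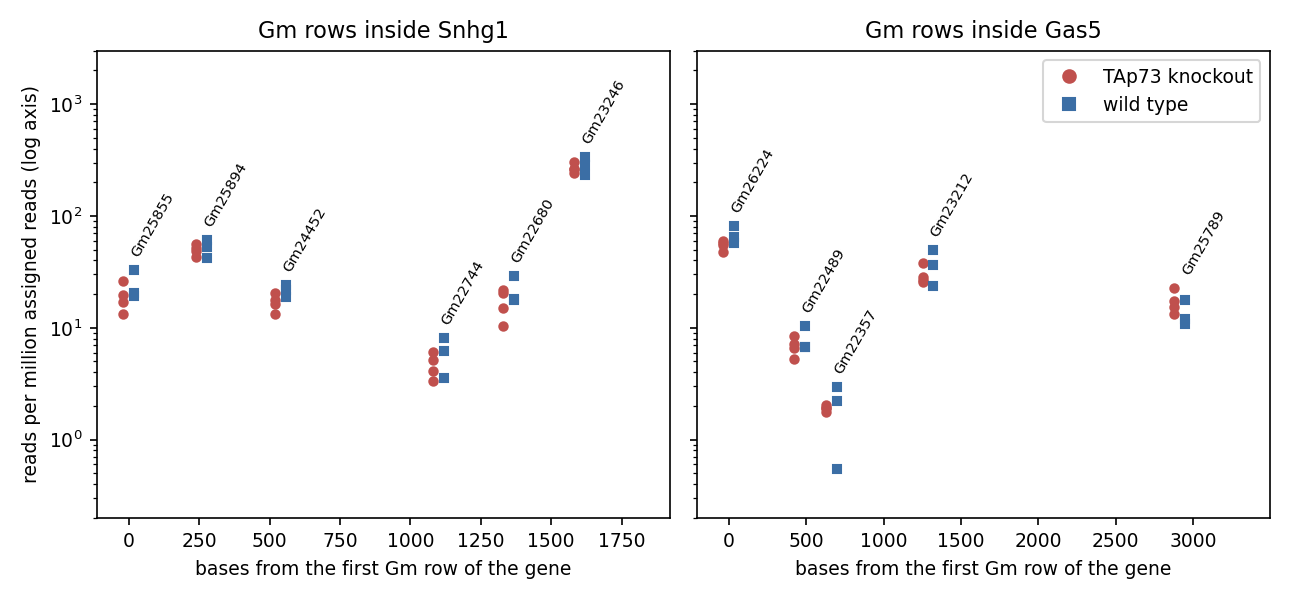
Level in CPM (reads per 1000000 assigned reads) on a log axis (y axis) of each gene in Snhg1 and Gas5 against its distance in bases from the first such gene of the host (x axis), with 1 point per library, circles for knockout and squares for wild type. Gm23246 stands highest in Snhg1, between 233 and 334, and Gm26224 in Gas5, between 47.5 and 81.5, and the genotypes overlap at each gene.

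Summed over the 57 genes, the level was 1120, 1029, 1169 and 1169 CPM in the knockouts and 1144, 1176 and 1324 in the wild types. The groups overlapped, with means of 1122 ± 65.8 (SD, n = 4) and 1214 ± 96.3 (SD, n = 3) and a log2 difference, knockout minus wild type, of -0.11 (SE 0.08), or -0.029 when the libraries were scaled by TMM factors, as in the fit below. In share of assigned reads this was 0.103% to 0.117% against 0.114% to 0.132%. No p is given for sums, since the members were chosen with results of these data known. In bulk tissue, fewer cells of a type and less RNA per cell cannot be told apart.

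The sums by host and by type overlapped too. For Snhg1 they were 377.9, 336.9, 396.2 and 387.2 CPM in the knockouts and 390.9, 348.4 and 489 in the wild types, a log2 difference of -0.12 (SE 0.15). For Gas5 they were 119, 111.2, 105.3 and 107.2 against 106.7, 128.2 and 148.9, a log2 difference of -0.20 (SE 0.14). Wild type 3 was the highest library in both hosts, as it was for 23 of the 57 genes. The 10 genes in ribosomal protein hosts summed to 178.3, 141.6, 237.3 and 210.9 against 142.6, 214.4 and 159.8, a log2 difference of 0.15 (SE 0.24). The 7 snRNA genes gave 25.58 to 41.28 CPM against 27.08 to 46.2. The 124 snoRNA entries with a proper name, such as Snord or Snora, summed to 1035 ± 89.7 CPM (SD, n = 4) and 1236 ± 174 (SD, n = 3), also with overlap and a log2 difference of -0.25 (SE 0.14).

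**Figure D3:**
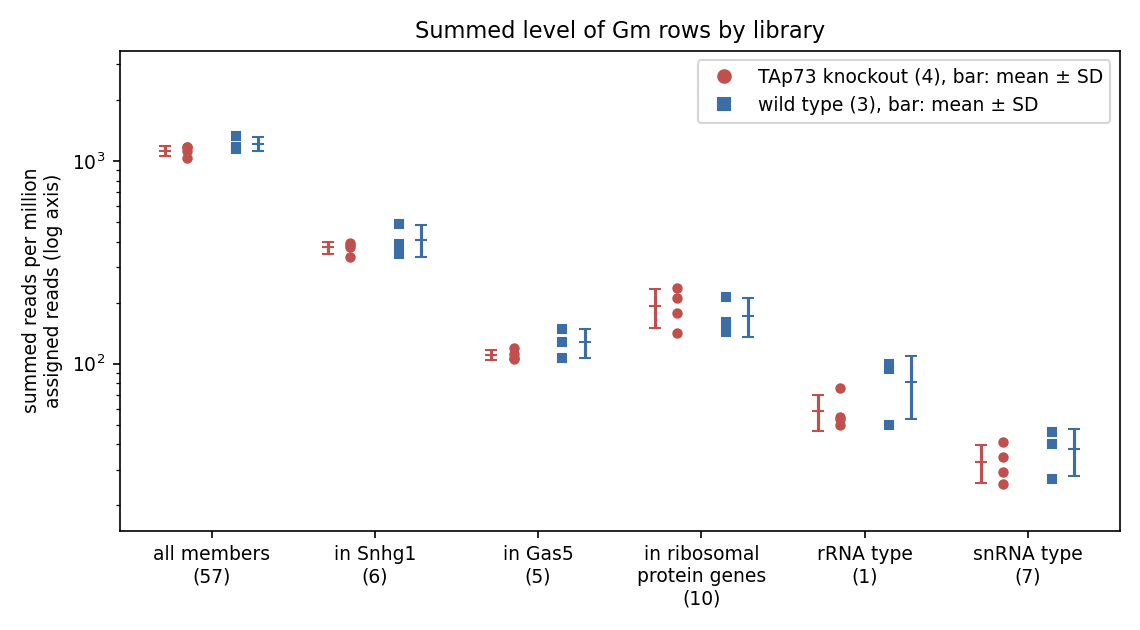
Summed level in CPM (reads per 1000000 assigned reads) on a log axis (y axis) of all 57 genes and of the genes in Snhg1, in Gas5 and in ribosomal protein hosts and of the rRNA and snRNA types (x axis), with 1 point per library and bars for mean and SD. Knockout and wild type overlap in each of the 6 sums, with 1029 to 1169 against 1144 to 1324 for all 57 genes.

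None of the 57 genes was called as changed by genotype. The edgeR quasi-likelihood test was fitted on the 706 entries that passed the count filter, of which 5, all arms of miR-34 and miR-449, had a Benjamini-Hochberg adjusted p under 0.05 (0.708%), 2 higher (0.283%) and 3 lower (0.425%) in the knockouts. Of the 57 genes, 50 passed the filter and 0 were called, with a lowest adjusted p of 0.49. DESeq2 called 0 of the 37 it gave an adjusted p, with a lowest value of 0.44, against 12 of 620 over all entries (1.94%). At an unadjusted p under 0.05 there were 2 of 50 (4%) with edgeR and 1 with DESeq2, and the edgeR share over all 706 was 9.92%.

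By sign, 21 of the 50 fitted log2 fold changes, knockout minus wild type, were above 0 and 29 below. Their median was -0.10, beside -0.021 over the 706 entries, and that of the 49 named snoRNAs tested was -0.11, with 0 of 49 called and 3 at an unadjusted p under 0.05. Without wild type 3 the median was 0.049 over the members tested and -0.012 over all entries tested, and with no count filter these were 0.044 and 0.40. The 95% interval lay within a 2-fold change either way for 28 of the 50 and for 18 of the 20 genes with the most reads, so a change beyond 2-fold is outside the interval for these. For the other 22 the interval reached past 2-fold on at least 1 side. These intervals, and the SEs of fitted changes, were derived from the log2 fold change and the edgeR test statistic. For genes with few reads they can be narrower than the edgeR p implies, as for Gm24494.

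The 20 genes with the most reads had log2 fold changes from -0.39 to 0.49, 6 above 0 and 14 below. For Gm23246, whose levels are given above, it was -0.0048 (SE 0.15, 95% interval -0.35 to 0.34, adjusted p = 0.99), a fold between 0.787 and 1.26. Gm26109, in the chaperone gene Hspa9, had 87.5, 62.9, 58.8 and 89.4 CPM against 79.9, 78.2 and 102, with a log2 fold change of -0.11 (SE 0.21). Gm26224 in Gas5 had 57.3, 60.1, 47.5 and 54.8 against 57.6, 65.2 and 81.5. Its 2 highest libraries were wild type and the groups overlapped, with a log2 fold change of -0.21 (SE 0.18).

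**Figure D4:**
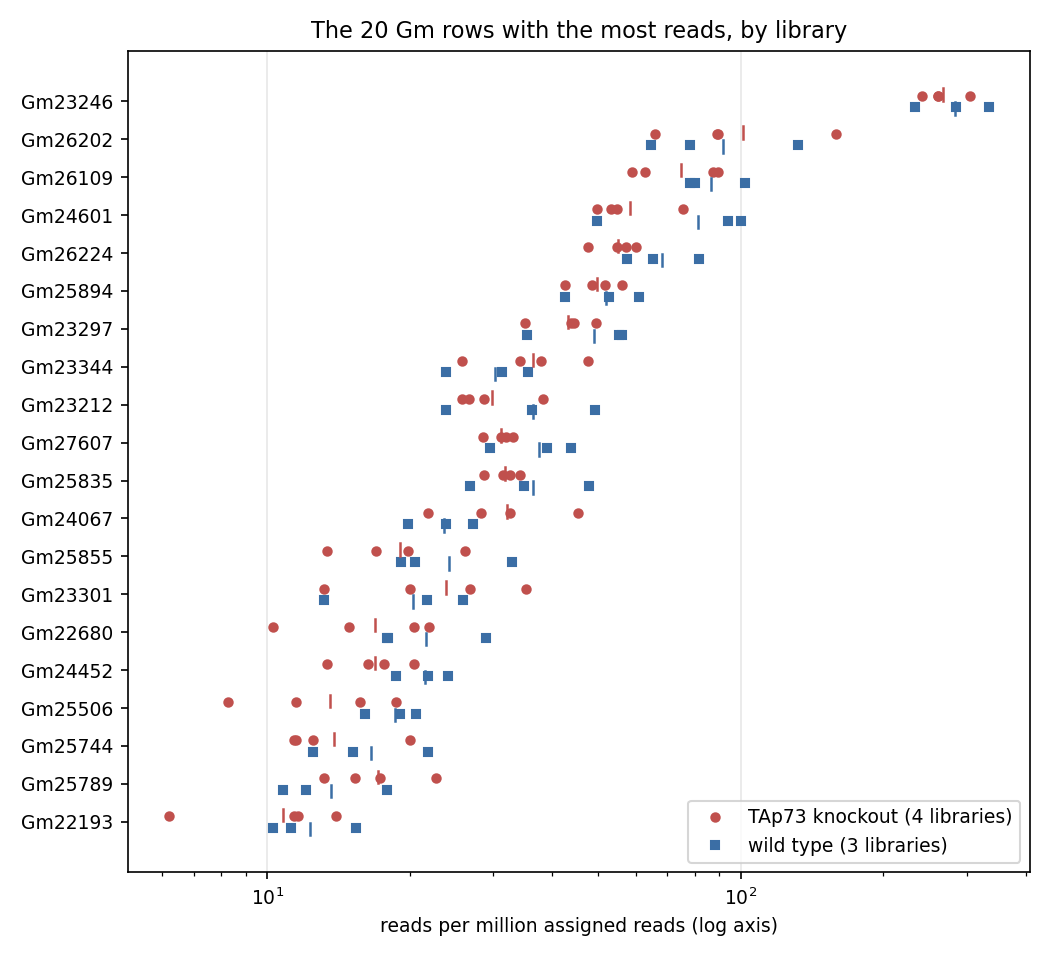
Level in CPM (reads per 1000000 assigned reads) on a log axis (x axis) in each of 4 knockout (circles) and 3 wild type (squares) libraries for the 20 genes with the most reads (y axis). Gm23246 lies between 233 and 334 in every library, above Gm26202, which spans 64.7 to 159, and the genotypes overlap for each of the 20.

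Gm26202, in Rpl17, varied most among the 3 leading genes, with 89.1, 66, 159 and 89.4 CPM in the knockouts and 78.1, 132 and 64.7 in the wild types. Knockout 3 and wild type 2 were its highest libraries. The same 2 libraries had the lowest summed level of the choroid plexus markers (3 of 3 miRNAs, the arms of miR-204 and miR-211), at 1986 and 1991 CPM. In the remaining knockouts that sum was 4942 to 7347 and in the remaining wild types 8230 and 11643, and its part in the Gm26202 level was not tested. Gm26202's log2 fold change between genotypes was 0.20 (SE 0.32, 95% interval -0.52 to 0.92). Its neighbour Gm23301 had 20, 13.2, 26.8 and 35.2 CPM against 13.2, 25.9 and 21.7, highest in knockout 4 and so not in the same order.

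Among the other leading genes, the fitted changes above 0 were led by Gm24067 in Ppan, a ribosome production gene, with 28.3, 32.5, 45.4 and 21.9 CPM in the knockouts and 23.8, 27.2 and 19.8 in the wild types. Gm23344 in Rpl4 had 37.8, 34.1, 25.8 and 47.6 against 23.8, 31.3 and 35.5, with a log2 fold change of 0.38 (SE 0.23). Gm25789 in Gas5 had 13.2, 15.3, 22.7 and 17.3 against 12.1, 17.9 and 10.8, also at 0.38 (SE 0.28). For each of these 3 the groups overlapped, and the highest library was a knockout. Gm25789 and its Gas5 neighbour Gm23212, with 38.2, 28.7, 25.8 and 26.7 against 23.8, 36.2 and 49.3, differed in their highest library, knockout 3 for the former and wild type 3 for the latter, whose log2 fold change was -0.17 (SE 0.25). Wild type 1 was low for both.

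Below 0, Gm25506 in the nuclear import gene Tnpo2 had 18.7, 15.7, 8.26 and 11.5 CPM against 19.1, 16.1 and 20.6, with a log2 fold change of -0.30 (SE 0.28). Gm25835 in the translation helicase gene Eif4a1, the longest of the snoRNA genes at 144 bases, had 31.4, 28.7, 34.1 and 32.6 against 26.8, 34.8 and 47.7, at -0.12 (SE 0.21). The wild types held both its lowest and its highest library. In Snhg1, Gm25855, Gm22680 and Gm24452 had log2 fold changes of -0.22 (SE 0.27), -0.21 (SE 0.29) and -0.23 (SE 0.22), with levels between 10.3 and 32.8 CPM. Knockout 3 was the lowest and wild type 3 the highest library for each of them. Gm25744 in 1110038B12Rik, at 11.4 to 20 CPM in the knockouts and 12.5 to 21.9 in the wild types, had -0.13 (SE 0.29), and Gm22193 in Sf3b3, at 6.19 to 14 and 10.3 to 15.4, had -0.032 (SE 0.28).

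The smallest p on the higher side belonged to Gm22730, typed as snRNA, with 4.6, 2.44, 5.16 and 7.39 CPM in the knockouts and 2.57, 2.68 and 2.17 in the wild types. The groups overlapped through knockout 2, and the log2 fold change was 1.02 (SE 0.45, edgeR unadjusted p = 0.046, adjusted p = 0.49). In the wild types these levels were 7, 6 and 8 reads. Gm22730 passed the count filter through knockout libraries alone, so its p is a description and not support for a change. Gm24455, an H/ACA-type gene inside Taf1d, which encodes a subunit of the RNA polymerase I selectivity factor, had 3.96, 2.44, 6.19 and 3.31 against 2.2, 1.34 and 2.17. It was the 1 gene of the 57 whose groups did not overlap, while 10.1% of the 706 entries tested had groups apart and 2.97% had the knockouts above. Its log2 fold change was 0.95 (SE 0.44, edgeR adjusted p = 0.5), and it rested on 92 reads in all, with 6, 3 and 8 in the wild types. Gm24455 too passed the count filter through knockout libraries alone, so its separation is a description and not support for a change. The next on this side were Gm24067 at 0.49 (SE 0.26), Gm23090 in Ubap2 at 0.83 (SE 0.48) and Gm23201 in the noncoding Zfas1 at 0.68 (SE 0.40), with overlapping groups. Leaving out 1 library moved Gm23090 from 0.35 (without knockout 4) to 1.54 (without wild type 3) and Gm23201 from 0.29 (without wild type 1) to 1.15 (without wild type 3).

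On the lower side, the smallest p was that of Gm25099, an snRNA gene on chromosome 4, with 7.92, 11.8, 5.16 and 9.17 CPM in the knockouts and 19.1, 19.2 and 10.6 in the wild types. Wild type 1 and 2 were above every knockout and wild type 3 was not. The log2 fold change was -0.76 (SE 0.32, 95% interval -1.46 to -0.06, edgeR unadjusted p = 0.036, adjusted p = 0.49). Gm25099 is 92.2% identical over its length to Gm25313, which itself is 97.4% identical to the U5 gene Rnu5g, so reads could be split among them. Gm24357 in Taf1d had 3.75, 2.7, 5.16 and 2.04 against 5.13, 5.36 and 5.69, with a log2 fold change of -0.69 (SE 0.35). The lower side then held Gm22188 at -0.56 (SE 0.35), Gm24601 at -0.39 (SE 0.27) and Gm25156 at -0.36 (SE 0.29). Without wild type 3, Gm22188 was at -0.13 and Gm24601 at -0.68 (edgeR unadjusted p = 0.0097, adjusted p = 0.3). Without wild type 2, Gm24601 was at -0.24, and without knockout 2 Gm25156 was at -0.60. Gm24357 and Gm24455 lie in the same host and had fitted changes of opposite sign, neither of which was called.

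**Figure D5:**
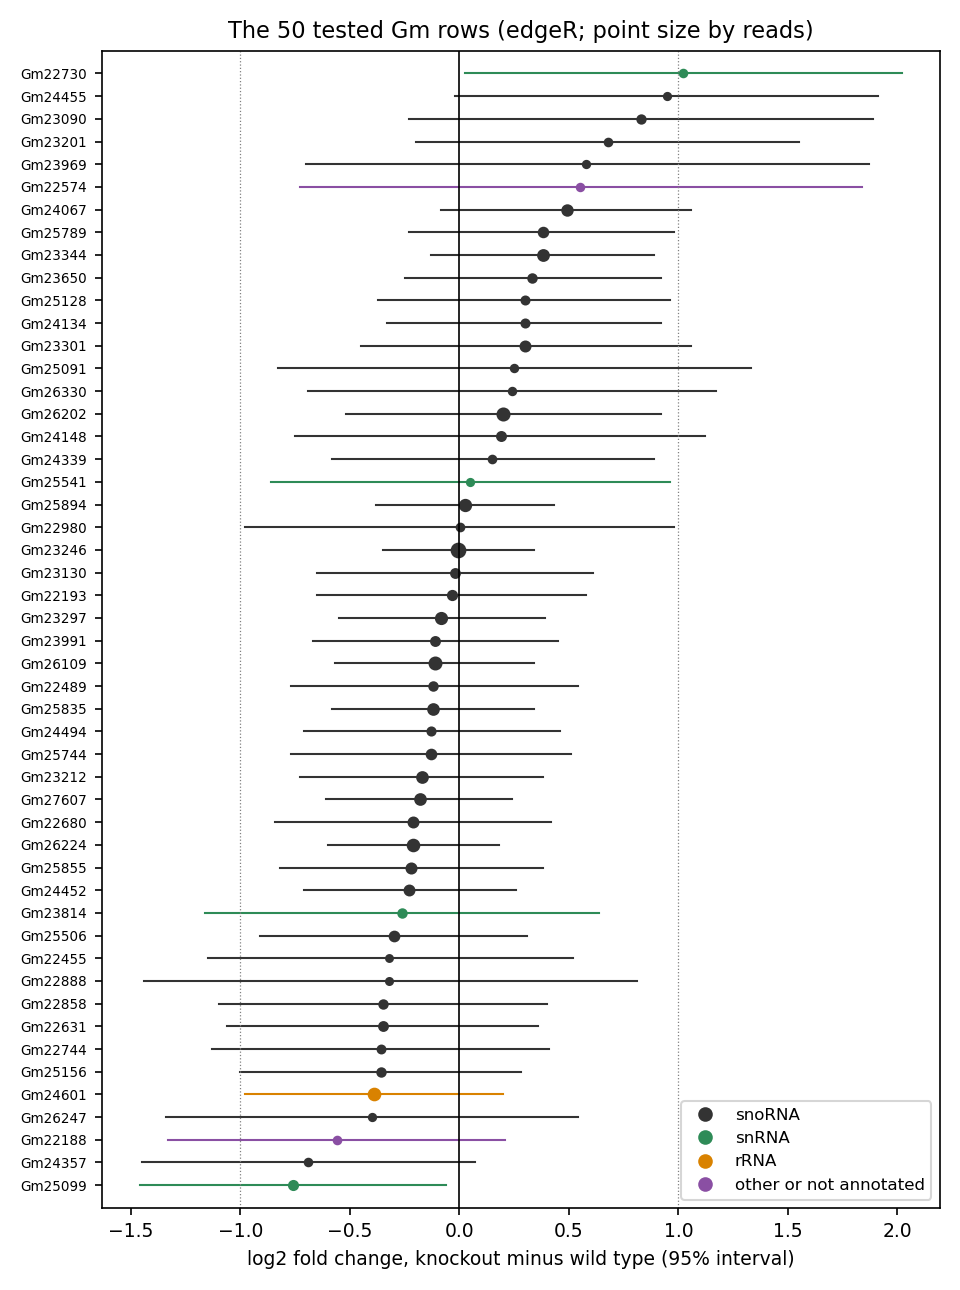
Fitted log2 fold change, knockout minus wild type, with its 95% interval (x axis) for the 50 tested genes (y axis), coloured by annotated type. The estimates run from -0.76 (Gm25099) to 1.02 (Gm22730), and the dotted lines mark a 2-fold change.

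The summed levels of some lists of cell type markers, but not of most, were apart between the genotypes. They were not tested. The summed level of the multiciliated cell markers (6 of 6 measured, 5 with reads in every library) was 379.7 to 752.7 CPM in the knockouts and 1275 to 3630 in the wild types. The 5 called arms are all in this list and did not move together: miR-34b-3p, miR-34b-5p and miR-34c-5p fell in the knockouts, while miR-449a-5p and miR-449c-5p rose, so their sum mixes both directions. The neuronal markers (3 of 3) summed to 25103 to 27995 against 13936 to 24630. Neither pair of ranges overlapped, while the choroid plexus, oligodendrocyte, erythrocyte, leukocyte and endothelial sums did. The neuronal ranges nearly met, at 25103 CPM in knockout 1 and 24630 in wild type 2. Of the 706 single entries tested, 10.1% had groups apart. The part of these differences in the levels of the 57 genes was not tested.

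For 9 of the 57 genes another annotated small RNA gene is at least 90% identical over the length, and their values are uncertain for that reason. They are 4 snoRNA and 5 snRNA genes, and for Gm24148 the match is the miR-3535 gene at the same place. How reads that match several copies were counted is not given in the sources used here. Both genes inside Snhg14 are among them and are printed as examples of the array copies, with the C and D boxes in capitals, from chr7:59781780-59781873 for Gm22631 and chr7:59353283-59353361 for Gm25156, on the minus strand.
Gm22631: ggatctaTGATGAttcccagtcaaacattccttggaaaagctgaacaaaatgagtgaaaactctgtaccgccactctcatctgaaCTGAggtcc
Gm25156: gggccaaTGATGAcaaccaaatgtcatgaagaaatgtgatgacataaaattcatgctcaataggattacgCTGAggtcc
Gm22631 has 69 such copies, the nearest being Snord116l8 with 98.9% identity, and Gm25156 has 115. The table lists 82 entries inside Snhg14, of which 33 had reads, and 443 of their 940 reads fell outside these 2 genes. Of the 82, 23 join several names, start with Gm and had 0 reads. Gm22631 had 8.35, 8.23, 10.3 and 7.39 CPM in the knockouts and 6.97, 8.49 and 18.1 in the wild types, so the high level was in wild type 3 alone. Gm25156 had 5.03, 8.23, 5.16 and 5.35 against 8.8, 6.25 and 9.75.

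The U6-like gene Gm23814 is 100% identical over its length to Rnu6 and has 319 copies at 90% or more, and the entry that joins Rnu6 with its pseudogene had 0 reads. U6 is the spliceosomal RNA transcribed by RNA polymerase III. Gm23814 had 5.35, 4.76, 15.5 and 8.41 CPM in the knockouts and 12.1, 9.38 and 6.5 in the wild types. The highest library was knockout 3 and the groups overlapped, with a log2 fold change of -0.26 (SE 0.41).

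Gm24148, inside the nucleolin gene Ncl, shares its first 26 bases with a mature miRNA, miR-3535, which are the capitals in the sequence below (chr1:86352008-86352087, minus strand).
Gm24148: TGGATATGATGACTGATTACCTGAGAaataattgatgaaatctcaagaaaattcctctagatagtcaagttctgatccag
The miR-3535 entry had 1041 reads and Gm24148 311. In CPM, miR-3535 was 34.2, 32.9, 34.1 and 35.9 in the knockouts and 39.6, 33.5 and 29.2 in the wild types, and Gm24148 was 7.06, 8.1, 13.4 and 19.9 against 15.4, 10.3 and 7.04. The miRNA entry was the steadier of the pair. RefSeq types Gm24148 itself as a miRNA, with mir-3535 among its other names. How reads that match both entries were assigned was not tested.

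Gm24601 is the only rRNA-typed gene among the 57, lies in no other gene and had 1976 reads. Its nearest annotated relative is n-R5-8s1, the 5.8S ribosomal RNA gene, with 70.6% of its length identical. The sequences below show how far these genes differ, and the capitals mark their longest shared run of 15 bases. Gm24601 lies at chr6:94826781-94826923 on the minus strand.
Gm24601: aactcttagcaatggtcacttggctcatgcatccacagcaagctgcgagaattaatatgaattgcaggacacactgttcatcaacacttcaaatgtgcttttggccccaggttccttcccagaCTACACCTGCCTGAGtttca
n-R5-8s1: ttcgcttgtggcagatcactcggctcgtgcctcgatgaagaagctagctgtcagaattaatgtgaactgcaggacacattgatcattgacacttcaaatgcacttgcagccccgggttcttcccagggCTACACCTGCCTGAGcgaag
Gm24601 had 49.7, 75.5, 54.7 and 53.2 CPM in the knockouts and 93.9, 100 and 49.6 in the wild types, while n-R5-8s1 had 93.8, 102, 111 and 113 against 65.6, 108 and 103. Wild type 1 and 2 were the highest for Gm24601 and wild type 1 was the lowest for n-R5-8s1. The log2 fold change of Gm24601 was -0.39 (SE 0.27, 95% interval -0.98 to 0.20).

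The H/ACA-type genes were few. By the ACA ending, 4 of the 47 snoRNA genes had it without a C box, led by Gm23297 in the nucleosome assembly gene Nap1l4 and Gm27607, which lies in no other gene. Gm23297 and Gm24455 are shown with the ACA in capitals, at chr7:143531394-143531520 on the minus strand and chr9:15313802-15313932 on the plus strand.
Gm23297: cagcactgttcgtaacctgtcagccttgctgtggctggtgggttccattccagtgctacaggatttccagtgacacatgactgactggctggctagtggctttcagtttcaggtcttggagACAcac
Gm24455: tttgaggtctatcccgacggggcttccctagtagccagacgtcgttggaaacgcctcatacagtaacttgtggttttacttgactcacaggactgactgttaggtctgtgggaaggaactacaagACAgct
Gm23297 had 43.8, 44.5, 35.1 and 49.4 CPM in the knockouts and 56.1, 35.3 and 55.2 in the wild types, with overlapping groups and a log2 fold change of -0.082 (SE 0.21). Gm27607 had 33, 28.5, 32 and 31.1 against 38.9, 29.5 and 43.9, at -0.18 (SE 0.19). The 13 snoRNA genes with neither full motif set each carried a single exact box of the C/D pair. It was the C box in Gm24067 and the D box in the others, among them Gm26109 and Gm25894.

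Some hosts also carry named snoRNAs with more reads than the Gm gene beside them. In Rabggtb, a subunit gene of the Rab geranylgeranyl transferase, Snord45c had 2566 reads and Gm24494 173. The remaining snoRNA genes in protein-coding hosts lay lower, for example Gm23130 in Rps12 at 6.88 to 11.6 CPM over the 7 libraries and Gm23650 in Nop56 at 4.91 to 8.26, with log2 fold changes of -0.022 (SE 0.29) and 0.33 (SE 0.27). The 7 genes that did not pass the count filter were Gm25313, Gm22486, Gm25970, Gm22247, Gm22540, Gm25698 and Gm22357, with 57 to 75 reads each. Gm25313 had 0 reads in knockout 3 and Gm22247 0 in wild type 2, which allow up to 3.1 and 1.34 CPM.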

How the data were processed

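The values deposited by the authors are unnormalized counts, in whole numbers, for each of the 7 libraries. Per the labels' protocols, RNA came from a phenol and chloroform extraction and libraries from the TruSeq small-RNA kit of Illumina. The build mm10, DESeq2 and bcl2fastq 2.17.1.14 stand in the submitters' processing notes. Aligner, counter and annotation: not given in the sources used here. Each table holds 66573 entries, of which 5 closing lines hold 0 reads and were left out.

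The fit used edgeR 4.0.16 in R 4.3.3 on all named entries, with filterByExpr by group (minimum count 10, minimum total 15), TMM scaling on totals of assigned reads, the robust quasi-likelihood test and Benjamini-Hochberg adjustment over the entries tested, called under 0.05. DESeq2 1.42.0 was an alternative. CPM values are unscaled. Positions, types and sequences come from GENCODE M21 (GRCm38), and the miRNA sequence from RefSeq. Copies were sought with blastn (identical bases over at least 90% of the length).

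Groups follow the genotype labels. The members, gene lists and tests were chosen with earlier results of these data known. Genes named are the 20 with most reads, the 5 with the smallest p in each direction, the 2 with most reads per type and the 3 on each side of the read minimum. Gm24148, Gm22631 and the further Snhg1, Gas5, Rabggtb, Rps12 and Nop56 genes were named after their values were seen. Reads carry no molecular identifiers, so limits cover counting error only.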

Additional observations from a re-analysis of the deposited data

Results flagged for a closer look

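In the knockout group, 4 of 67 values examined, the levels of the 57 genes and the summed levels, had a library far from the other 3 by Dixon's test, and chance gives about 1 in 20. Gm25744 was at 20 CPM in knockout 1 and 11.4 to 12.5 in the others. Gm25156 was at 8.23 CPM in knockout 2 and 5.03 to 5.35 in the others. Gm22188 was at 4.13 CPM in knockout 3, which is 4 reads, and 3.22 to 3.32 in the others. Gm25091, a box C/D gene in Rpl21 named after its value was seen, was at 7.39 CPM in knockout 4 and 2.25 to 3.1 in the others. The wild type group of 3 libraries was too small for this comparison.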

How the results depend on the processing

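No member was called in any of the 16 alternatives (other scalings, filters, tools and each library left out), and the lowest adjusted p was 0.3, for Gm22730 without knockout 2 and, after rounding, for Gm24601 and Gm25099 without wild type 3. At an unadjusted p under 0.05 they gave 0 to 5 members, the highest count without wild type 3. Unfiltered fitting tested 4009 entries with 19 called, against 5 of 706, and DESeq2 called 12. Of 507 values of named genes under alternatives, 482 kept their sign and 25 did not, in 13 genes, none of them called. Gm23246 went to 0.0025 with RLE size factors and 0.044 with no filter, Gm22193 to 0.033 with no filter, and Gm25894 to -0.068 with library totals alone, -0.0048 with mouse entries alone and -0.069 with miRNA and piRNA entries left out. The cause was not tested. Leaving out 1 library at a time gave -0.15 to 0.09 for Gm23246, -0.072 to 0.53 for Gm26202, -0.11 to 0.12 for Gm25894, -0.29 to 0.027 for Gm23297, -0.42 to 0.076 for Gm23212, -0.31 to 0.089 for Gm25835, -0.44 to 0.03 for Gm25855, -0.02 to 0.52 for Gm23301, -0.39 to 0.032 for Gm22680, -0.42 to 0.11 for Gm25744, -0.19 to 0.14 for Gm22193, -0.27 to 0.53 for Gm24148 and -0.62 to 0.17 for Gm22631. The summed level, -0.11, was -0.16 to -0.05 with 1 library left out and -0.029 with TMM factors. That of the snoRNA genes, -0.084, was 0.012 without wild type 3 and 0.0013 with TMM factors. No paired analysis was possible because the labels carry no replicate numbers, and the numbers used here only name libraries. Depth limits the low genes, above all in knockout 3.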
